A study of Homo sapiens with 31 samples.

Results

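The genes of classical end-joining and of the 53BP1 pathway were followed through the RNA-seq libraries of an olaparib study in cell lines used as ovarian cancer models. They were taken by gene name, with no threshold on their values, and all 10 (TP53BP1, RIF1, MAD2L2, XRCC5, XRCC6, PRKDC, DCLRE1C, NHEJ1, XRCC4 and LIG4) were found among the 19221 genes used. All 10 passed the filter on low values in every comparison. The study knocked down CEBPB, the gene of the transcription factor C/EBPβ, with lentiviral shRNA in C13*, an HR-proficient, cisplatin-resistant line. It also derived an olaparib-resistant strain, A2780 OlaR, from A2780 by long culture with rising olaparib, a PARP inhibitor. The paper concedes that the use of C13* is open to question given its origin. It adds that A2780 was reported as an unlikely line of high-grade serous ovarian cancer. The 31 libraries were labelled C13* shCON (control shRNA, n = 7), C13* shCEBPB (n = 8), A2780 (the untreated parent line, n = 8) and A2780 OlaR (n = 8). Each group is 1 line or strain, all are labelled as adenocarcinoma, and OlaR is labelled as treated with olaparib without saying whether the drug was in the medium at harvest.

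Classical non-homologous end-joining rejoins broken DNA without a template. XRCC5 and XRCC6 encode Ku80 and Ku70, the ring that first binds the broken end, and PRKDC encodes DNA-PKcs, the kinase that Ku recruits. DCLRE1C encodes Artemis, a nuclease that opens and trims ends. XRCC4, LIG4 and NHEJ1 (XLF) form the ligation machinery. TP53BP1 encodes 53BP1, which gathers at breaks and, through RIF1 and MAD2L2 (REV7, a shieldin subunit), keeps ends from being resected and so steers repair away from homologous recombination. Loss of 53BP1, RIF1 or REV7 is known for making BRCA1-deficient cells resistant to PARP inhibitors.

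Values were FPKM, fragments per gene divided by gene length and by library size, so levels of different genes are compared per length. FPKM do not give read numbers. From the steps of low values, relative depth lay between 0.865 and 1.23 over the 31 libraries. CEBPB itself was lower in shCEBPB, where the lowest, median and highest library had 30.2, 49.5 and 58.7 FPKM, than in shCON, with 75.2, 85.4 and 101 FPKM (log2 change -0.87, adjusted p = 1.42e-06, limma). The shCEBPB and shCON libraries did not overlap. In OlaR against A2780 the log2 change of CEBPB was 0.16 (adjusted p = 0.0202, limma), and the libraries overlapped. Under 6 of 14 alternative settings this change did not pass or turned its direction.

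The expression profiles went against the cell line labels. Across 12967 genes, the median Pearson's r between a shCON and an OlaR library was 0.989, near the 0.993 to 0.997 found within groups. It was 0.789 between shCON and shCEBPB and 0.706 between OlaR and A2780, the pairs that share a line by label. No gene was at 10 FPKM or more in every library of shCON and under 0.1 in every library of OlaR, or the reverse, while 111 genes were so split between shCON and shCEBPB and 154 between OlaR and A2780. The summed FPKM of 4 squamous markers (KRT5, KRT14, KRT6A, TP63) ranged from 1532 to 1805 in the shCON libraries and from 1735 to 2107 in OlaR, but reached at most 0.316 in shCEBPB and 0.191 in A2780. KRT5 and KRT6A were under 0.1 FPKM in each library of the last 2 groups. The mesenchymal marker VIM had a median of 808 FPKM in A2780, 342 in shCEBPB, 10.1 in shCON and 0.159 in OlaR. ZEB1 medians were 14.3, 6.11, 0.494 and 0.523 in the same order. CDH2 and FN1 did not follow VIM. CDH2 medians were 58.2 in A2780, 18.2 in OlaR, 16.6 in shCON and 7.16 in shCEBPB. FN1 was lowest in A2780 (0.537), against 7.85 in shCON and 7.71 in OlaR. The epithelial markers EPCAM and CDH1 were over 76 FPKM in each shCON and OlaR library, with medians under 1.2 in shCEBPB and A2780. KRT8 and KRT18 medians were highest in shCEBPB (889 and 525) and lowest in A2780 (5.87 and 81.3). Of the Müllerian markers, PAX8 had medians of 6.20 and 5.94 FPKM in shCON and OlaR and of 0.529 and 0.590 in shCEBPB and A2780, WT1 and MUC16 stayed under 1 in every group's median, and FOLR1 had a median of 878 in shCEBPB and of 14.0 or less in the other groups. In both labelled comparisons the labelled condition and the cell background therefore cannot be told apart. One shCON library (replicate 1) also has A2780 in its cell line field and C13* in its title.

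Libraries also differed by the number in their code. The labels do not say what this number stands for. Along the first principal component of a group, libraries 1 to 3 stood apart from libraries 4 to 8 in shCEBPB, A2780 and OlaR, and this component held 70.2%, 45.3% and 68.7% of the variance of these groups. In shCON they overlapped. The changes of the 10 genes in the 2 labelled comparisons are therefore also given within the 2 ranges.

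**Figure D1:**
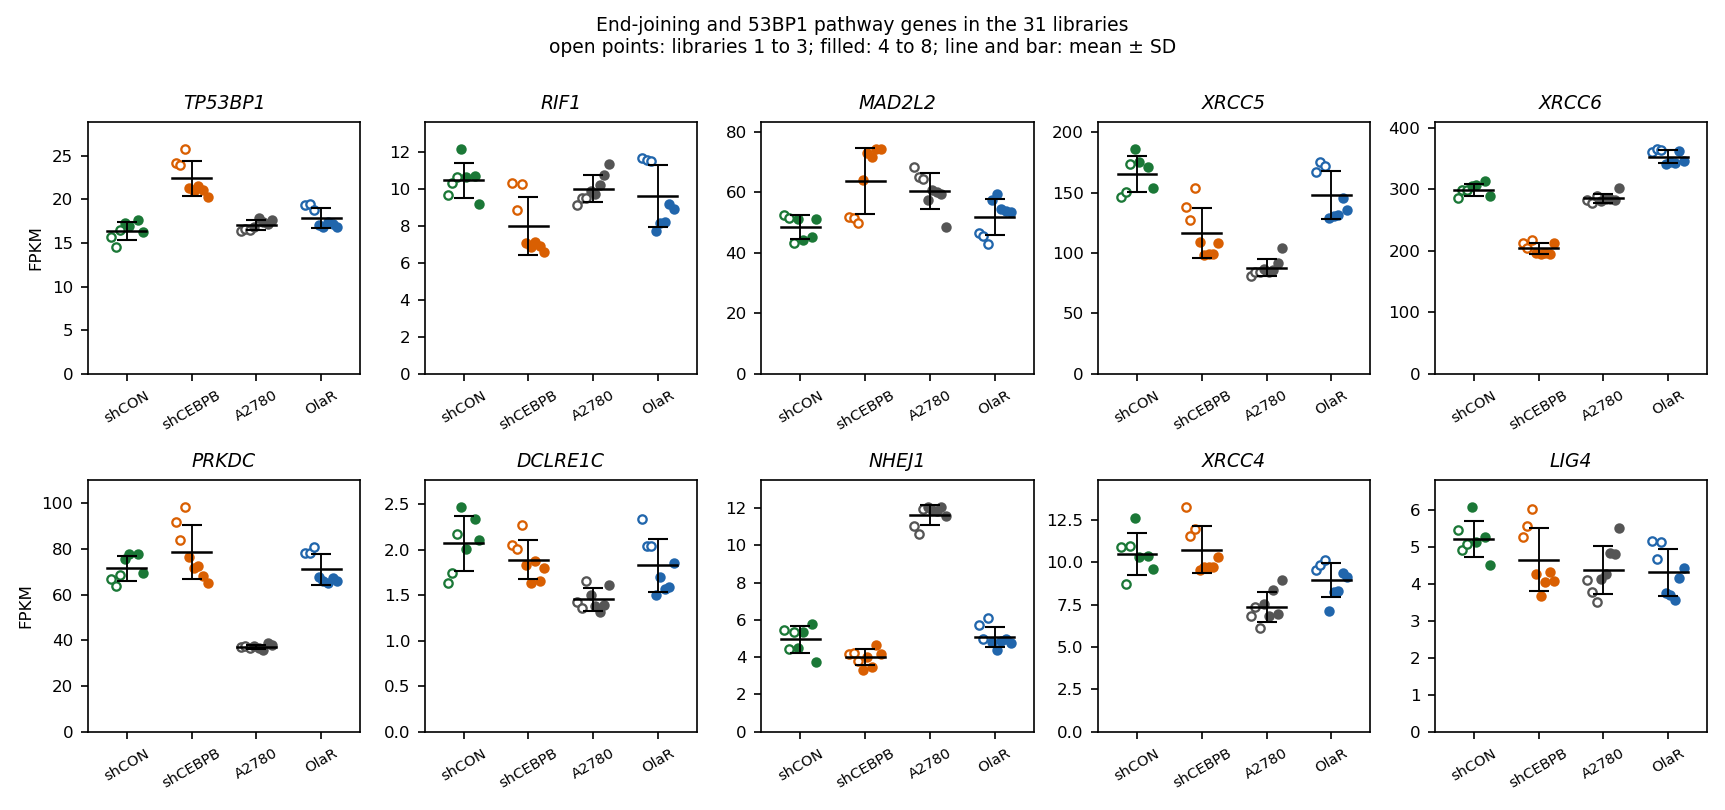
FPKM of the 10 genes (y axis, from 0) in each library of the 4 labelled groups (x axis). Open points are libraries 1 to 3, filled points are libraries 4 to 8, and the line and bar are the mean ± SD. XRCC6 and TP53BP1 of shCEBPB and PRKDC and NHEJ1 of A2780 stand apart from every other group, and in OlaR and shCEBPB the open points of RIF1 and MAD2L2 lie on opposite sides of the filled ones.

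Against shCON, the end-joining genes of shCEBPB moved in both directions. XRCC6, XRCC5, RIF1 and NHEJ1 fell, TP53BP1 and MAD2L2 rose, and PRKDC, DCLRE1C, XRCC4 and LIG4 did not pass the threshold. Thus 6 of 10 had an adjusted p under 0.05 (limma), while 84.7% of the 12006 genes tested did. Of these, 2 were higher (38.9% of all genes tested) and 4 lower (45.7%). The median size of the log2 change was 0.31 for the 10 genes and 0.57 for all genes tested, and the medians with sign were -0.11 and -0.07. In 2 of the 10 (XRCC6 and TP53BP1) the ranges of both groups were fully separate, against 66.0% of all genes tested. In bulk RNA, fewer cells of a kind and less RNA per cell cannot be told apart.

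In A2780 OlaR against A2780, PRKDC, XRCC5, XRCC6, XRCC4 and DCLRE1C rose, NHEJ1 and MAD2L2 fell, and TP53BP1, RIF1 and LIG4 did not pass. These 7 of 10 compare with 89.8% of the 12458 genes tested, the 5 higher ones with 40.1% and the 2 lower ones with 49.7%. The median size of the log2 change was 0.24, against 0.70 for all genes tested, and the medians with sign were 0.13 and -0.12. In 4 of the 10 (PRKDC, XRCC5, XRCC6 and NHEJ1) no OlaR library overlapped with an A2780 library, against 74.1% of all genes.

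**Figure D2:**
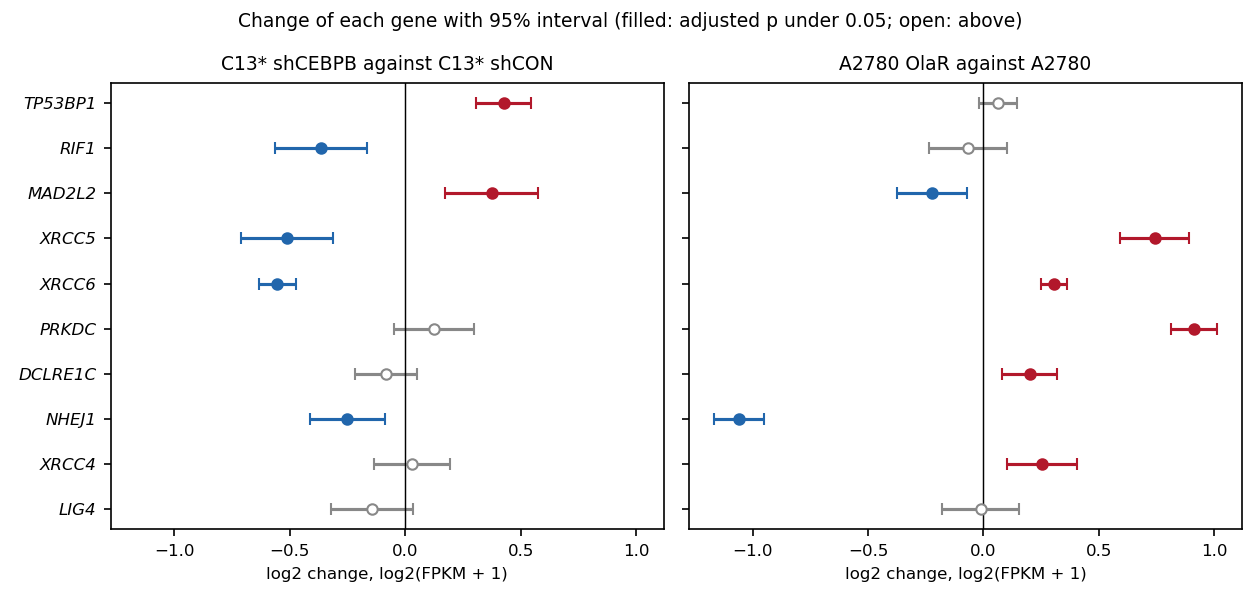
log2 change of each gene on log2(FPKM + 1) (x axis) in C13* shCEBPB against C13* shCON (left) and A2780 OlaR against A2780 (right). Bars are 95% intervals, filled points have an adjusted p under 0.05 (red higher, blue lower) and open points do not. The Ku genes XRCC5 and XRCC6 lie left of 0 on the left and right of 0 on the right, and the widest distances from 0 on the right are those of NHEJ1 (-1.06) and PRKDC (0.91).

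XRCC6 was the most abundant of the 10 transcripts in each group. Its lowest, median and highest values were 286, 299 and 313 FPKM in shCON and 194, 201 and 218 FPKM in shCEBPB. The mean fell from 299 ± 9.77 (SD, n = 7) to 204 ± 9.60 FPKM (SD, n = 8), a log2 change of -0.55 (standard error 0.04, adjusted p = 1.40e-10, limma). No shCEBPB library reached the lowest shCON library, and the exact permutation test gave p = 0.000311, the smallest p these libraries allow. Libraries 1 to 3 alone gave -0.48 and libraries 4 to 8 alone -0.60. In A2780 the values were 278, 283 and 302 FPKM, and in OlaR 340.4, 353 and 366 FPKM, a log2 change of 0.31 (standard error 0.03, adjusted p = 2.15e-09, limma). Here too the groups stayed apart (exact permutation test, p = 0.000155, the smallest p possible for these groups), with 0.36 within libraries 1 to 3 and 0.27 within 4 to 8. XRCC6 has 5 annotated pseudogenes, and how reads were divided between copies is not given in the sources used here. The gene (chromosome 22 of hg38, 41621163 to 41664048) shares no exonic base with another gene.

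XRCC5, its partner (chromosome 2, 216107464 to 216206303), was at 146, 171 and 186 FPKM in shCON and 98.3, 108 and 154 FPKM in shCEBPB. The groups overlapped through 1 shCEBPB library, at 154 FPKM. The 3 libraries numbered 1 to 3 of shCEBPB were at 127 to 154 FPKM and the 5 others at 98.3 to 109. The log2 change was -0.51 (standard error 0.09, adjusted p = 7.38e-05, limma; exact permutation test, p = 0.00124), and it was -0.73 within libraries 4 to 8 but -0.16, with an adjusted p of 0.107 (limma), within libraries 1 to 3. In A2780 the values were 80.5, 85.1 and 104 FPKM and in OlaR 129, 140.2 and 175 FPKM. All 8 OlaR libraries were above all A2780 libraries. The rise was 0.74 (standard error 0.07, adjusted p = 7.47e-09, limma), with 1.03 within libraries 1 to 3 and 0.57 within 4 to 8.

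Ku80 and Ku70 work as a pair of equal parts, so the ratio of XRCC5 to XRCC6 FPKM was also formed in each library. In shCON the ratio was 0.551 ± 0.0386 (SD, n = 7), beside 0.570 ± 0.0792 (SD, n = 8) in shCEBPB, and these did not differ beyond their spread (exact permutation test, adjusted p = 0.624 over 4 comparisons). It was 0.307 ± 0.0189 in A2780 and 0.419 ± 0.0442 in OlaR (n = 8 each), where no library overlapped (log2 difference 0.44, exact permutation test, adjusted p = 0.000311). Over all libraries XRCC5 thus rose more than XRCC6 in OlaR. Between libraries 1 to 3 and 4 to 8 the mean ratio went from 0.532 to 0.565 in shCON, from 0.660 to 0.516 in shCEBPB, from 0.471 to 0.387 in OlaR and from 0.294 to 0.315 in A2780. The mean ratio of shCEBPB was above that of shCON in libraries 1 to 3 and below it in 4 to 8, while the difference of OlaR and A2780 kept its sign in both ranges.

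**Figure D3:**
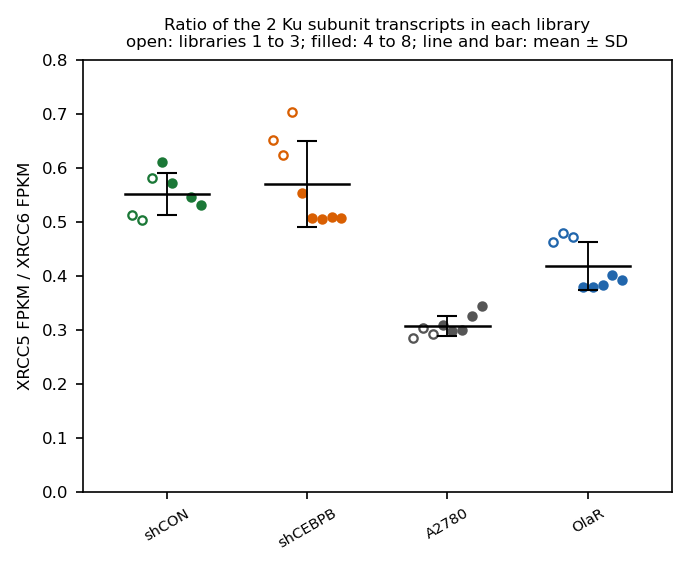
Ratio of XRCC5 FPKM to XRCC6 FPKM (y axis, from 0) in each library of the 4 labelled groups (x axis). Open points are libraries 1 to 3, filled points 4 to 8, and the line and bar are the mean ± SD. A2780 libraries lie between 0.285 and 0.344 and OlaR libraries between 0.379 and 0.478, below the shCON and shCEBPB libraries, which start at 0.504 and 0.505.

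PRKDC (chromosome 8, 47773111 to 47960178) separated A2780 from the 3 other groups. It was at 35.7, 37.2 and 38.8 FPKM in A2780 and at 65.0, 67.3 and 81.0 FPKM in OlaR. The mean rose from 37.2 ± 0.958 to 71.1 ± 6.70 FPKM (SD, n = 8 each), 1.91 times as high (log2 change 0.91, standard error 0.05, adjusted p = 4.60e-13, limma). The rise was 1.07 within libraries 1 to 3 and 0.81 within 4 to 8. In shCON it was at 63.9, 69.4 and 78.0 FPKM and in shCEBPB at 65.3, 74.6 and 98.6 FPKM. These overlapped widely, and the log2 change of 0.13 did not pass (95% interval -0.05 to 0.30, adjusted p = 0.161, limma). Within libraries 1 to 3, however, PRKDC was higher in shCEBPB by 0.45 (adjusted p = 0.000184, limma), while within libraries 4 to 8 the change was -0.08 (adjusted p = 0.165, limma).

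DCLRE1C, the gene of the end-trimming nuclease Artemis (chromosome 10, 14897359 to 14954432), was the lowest of the 10 transcripts in each group. It was at 1.32, 1.41 and 1.66 FPKM in A2780 and 1.50, 1.78 and 2.34 FPKM in OlaR. These overlapped, and the log2 change of 0.20 passed (standard error 0.06, adjusted p = 0.00274, limma). Both ranges passed, with 0.34 in libraries 1 to 3 and 0.12 in 4 to 8. In shCON it was at 1.64, 2.10 and 2.47 FPKM and in shCEBPB at 1.64, 1.85 and 2.27 FPKM, with a change of -0.08 (95% interval -0.22 to 0.05). Within libraries 4 to 8 this change was -0.23 (adjusted p = 0.00373, limma) and within 1 to 3 it was 0.13 (adjusted p = 0.193, limma). At this level the pseudocount of 1 makes log2 changes smaller than those of the FPKM, and DCLRE1C shares 159 exonic bp with SUV39H2 on the opposite strand and has 1 annotated pseudogene.

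NHEJ1 had the largest change of the 10 genes in OlaR against A2780. XLF, its product, bridges ends together with XRCC4. It was at 10.6, 11.9 and 12.1 FPKM in A2780 and at 4.40, 4.92 and 6.11 FPKM in OlaR, with a wide gap between the groups. The OlaR mean of 5.08 ± 0.558 FPKM was 0.437 times the A2780 mean of 11.6 ± 0.526 (SD, n = 8 each), a log2 change of -1.06 (standard error 0.05, adjusted p = 1.28e-13, limma). It fell by 0.89 within libraries 1 to 3 and by 1.16 within 4 to 8 on the log2 scale. In shCON it was at 3.73, 5.37 and 5.80 FPKM and in shCEBPB at 3.33, 4.09 and 4.64 FPKM. The groups overlapped, and the change of -0.25 passed (adjusted p = 0.00620, limma; exact permutation test, p = 0.0109). It was -0.26 and -0.24 within the 2 ranges, with adjusted p of 0.0161 and 0.0502 (limma), and -0.04 with quantile normalization (adjusted p = 0.577, limma). NHEJ1 (chromosome 2, 219069355 to 219160869) shares 2034 exonic bp with a readthrough gene on its own strand and 668 bp with a lncRNA on the other, so reads there could not be told apart.

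XRCC4 and LIG4, which join as scaffold and ligase in the final step, changed less. XRCC4 was at 6.10, 7.17 and 8.95 FPKM in A2780 and at 7.16, 9.25 and 10.1 FPKM in OlaR, a log2 change of 0.25 (standard error 0.07, adjusted p = 0.00271, limma). This was 0.49 within libraries 1 to 3 and 0.11 within 4 to 8 (adjusted p = 0.171, limma). The shCON and shCEBPB libraries overlapped almost fully, from 8.72 to 12.6 and from 9.56 to 13.3 FPKM, with medians of 10.4 and 10.0 (log2 change 0.03, 95% interval -0.14 to 0.19). Within libraries 1 to 3, XRCC4 was higher in shCEBPB by 0.25 (adjusted p = 0.0345, limma), and within 4 to 8 the change was -0.11 (adjusted p = 0.154, limma). LIG4 had medians of 5.14 FPKM in shCON, 4.30 in shCEBPB, 4.20 in A2780 and 4.29 in OlaR, and its libraries ranged from 3.50 to 6.09 FPKM over all groups. It passed in neither comparison (log2 change -0.14, 95% interval -0.32 to 0.03, in shCEBPB, and -0.01, 95% interval -0.18 to 0.16, in OlaR). Within library ranges it did: in OlaR it was 0.32 higher within libraries 1 to 3 and 0.21 lower within 4 to 8, written as log2 changes of 0.32 and -0.21 (adjusted p = 0.000999 and 0.0101, limma). In shCEBPB the change of LIG4 was -0.30 within libraries 4 to 8 (adjusted p = 0.00207, limma) and 0.11 within 1 to 3 (adjusted p = 0.199, limma).

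TP53BP1 was set apart in shCEBPB. It was at 20.3, 21.4 and 25.8 FPKM there and at 14.5, 16.5 and 17.6 FPKM in shCON. Each of the 8 shCEBPB libraries was above each library of the 3 other groups. The mean rose from 16.4 ± 1.06 (SD, n = 7) to 22.4 ± 1.98 FPKM (SD, n = 8), 1.37 times as high (log2 change 0.43, standard error 0.06, adjusted p = 1.62e-06, limma; exact permutation test, p = 0.000311). The rise was 0.63 within libraries 1 to 3 and 0.29 within 4 to 8. In A2780 it was at 16.4, 17.0 and 17.9 FPKM and in OlaR at 16.9, 17.3 and 19.5 FPKM, where the change of 0.06 did not pass (95% interval -0.02 to 0.14, adjusted p = 0.127, limma). It was 0.21 within libraries 1 to 3 (adjusted p = 0.000380, limma) and -0.02 within 4 to 8. TP53BP1 (chromosome 15, 43403061 to 43510728) shares 3732 of its 12976 exonic bp with TUBGCP4 on the opposite strand, and whether counting used the strand is not given in the sources used here.

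RIF1 and MAD2L2, which act after 53BP1, moved with the library number as much as with the group. RIF1 was at 9.16, 10.6 and 12.2 FPKM in shCON and 6.57, 7.09 and 10.3 FPKM in shCEBPB (log2 change -0.36, standard error 0.09, adjusted p = 0.00161, limma; exact permutation test, p = 0.00559). The fall was -0.56 within libraries 4 to 8 but -0.05, with an adjusted p of 0.526 (limma), within libraries 1 to 3. In A2780 it was at 9.14, 9.80 and 11.3 FPKM and in OlaR at 7.71, 9.05 and 11.7 FPKM. The pooled change of -0.07 did not pass (95% interval -0.23 to 0.10). It joined a change of 0.27 within libraries 1 to 3 (adjusted p = 0.000156, limma) and one of -0.27 within 4 to 8 (adjusted p = 0.000284, limma). RIF1 (chromosome 2, 151409883 to 151508013) shares 318 exonic bp with NEB on the opposite strand.

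MAD2L2 (chromosome 1, 11658918 to 11691811) was at 43.3, 51.2 and 52.4 FPKM in shCON and 50.0, 67.7 and 74.4 FPKM in shCEBPB (log2 change 0.37, standard error 0.10, adjusted p = 0.00158, limma; exact permutation test, p = 0.00808). Its shCEBPB libraries fell into 3 at 50.0 to 51.7 FPKM and 5 at 63.9 to 74.4 FPKM. The rise was 0.56 within libraries 4 to 8 and 0.06 (adjusted p = 0.461, limma) within 1 to 3. In A2780 it was at 48.3, 60.3 and 68.2 FPKM and in OlaR at 42.9, 53.7 and 59.5 FPKM (log2 change -0.22, standard error 0.07, adjusted p = 0.00781, limma). The fall was -0.54 within libraries 1 to 3 and -0.03 (adjusted p = 0.607, limma) within 4 to 8. MAD2L2 shares 936 exonic bp with genes on the opposite strand.

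Within groups, libraries 1 to 3 did not overlap with libraries 4 to 8 in 9 of the 10 genes in OlaR (51.5% of 12967 genes), 8 in shCEBPB (47.0%), 5 in A2780 (18.9%) and 1 in shCON (4.86%). In OlaR and shCEBPB they were higher in each such gene except MAD2L2, where they were lower. In A2780 they were lower in 4 of the 5, with MAD2L2 again the exception. The longest transcript of MAD2L2 had a GC content of 58.9%, against 36.7% to 50.7% in the other 9 genes. A correction of each library for gene length and GC content left all 6 changes in shCEBPB past the threshold. These were the falls of XRCC6 (-0.51), RIF1 (-0.17), XRCC5 and NHEJ1 and the rises of TP53BP1 (0.47) and MAD2L2 (0.21). PRKDC (0.19) and XRCC4 (0.24) passed with it as well. Thus 8 of the 10 genes did, against 10179 of all 11518 genes tested with it. In OlaR, RIF1 rose by 0.13 after the correction (adjusted p = 0.00127, limma). The part of RNA quality or preparation in these ranges was not tested.

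**Figure D4:**
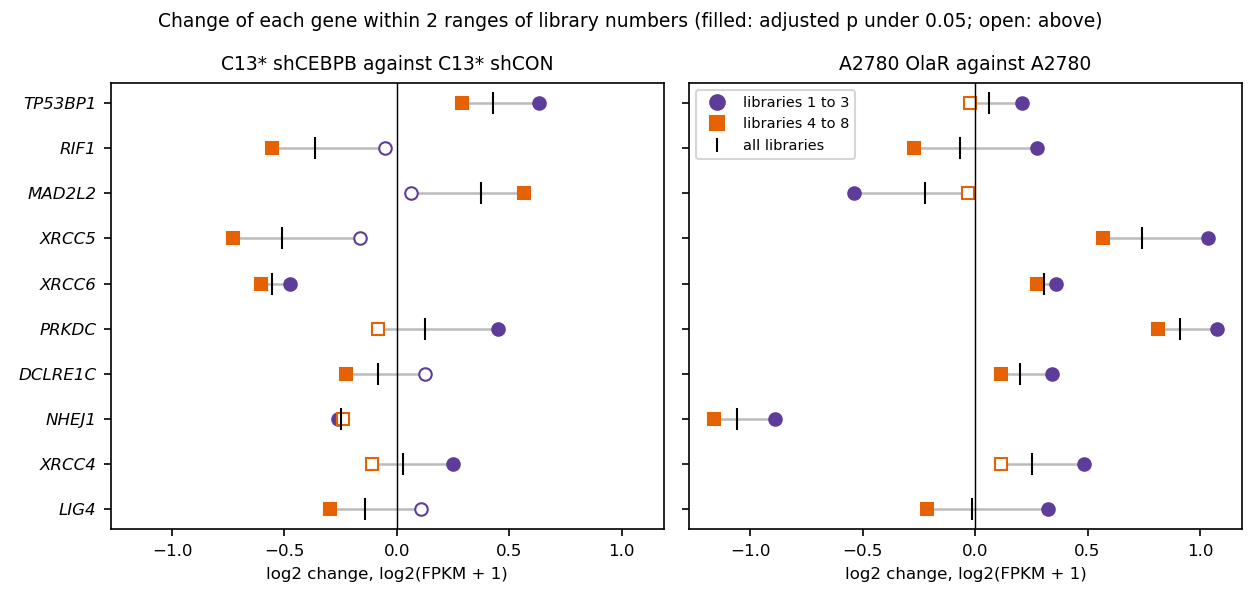
log2 change of each gene on log2(FPKM + 1) (x axis) in the 2 labelled comparisons, within libraries 1 to 3 (circles), within libraries 4 to 8 (squares) and over all libraries (bars). Filled symbols have an adjusted p under 0.05 and open symbols do not. XRCC6 keeps its sign and filled symbols in both panels, while RIF1 in OlaR goes from 0.27 to -0.27.

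Within libraries 1 to 3, 5 of the 10 genes passed in shCEBPB against shCON (82.2% of all genes tested there) and all 10 in OlaR against A2780 (90.1%). Within libraries 4 to 8 there were 7 (86.3%) and 7 (90.4%). XRCC6 and TP53BP1 passed in the same direction in both ranges in shCEBPB, and XRCC5, XRCC6, PRKDC, DCLRE1C and NHEJ1 did so in OlaR.

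The 2 labelled changes share no library, so their difference was tested in 1 fit of all groups. The changes differed in 8 of the 10 genes, against 89.1% of the 12967 genes tested. Of these 8, 3 had a positive difference (46.2% of all genes tested) and 5 a negative one (42.9%). The largest differences were in the Ku genes, whose directions were opposite (shCEBPB change minus OlaR change -1.25 in XRCC5, standard error 0.12, adjusted p = 3.00e-11, and -0.86 in XRCC6, standard error 0.04, adjusted p = 4.42e-19, limma). Opposite directions were also found in MAD2L2 (0.60, adjusted p = 4.86e-05, limma). In neither library range did both of its changes pass. That in shCEBPB was 0.06 within libraries 1 to 3 (adjusted p = 0.461, limma), and that in OlaR was -0.03 within 4 to 8 (adjusted p = 0.607, limma). NHEJ1 fell in both and by more in OlaR (0.81, adjusted p = 1.20e-09, limma). The changes of PRKDC (-0.79), TP53BP1 (0.36), RIF1 (-0.30) and DCLRE1C (-0.28) differed as well, though that of RIF1 did not pass with a common sum of FPKM (-0.22, adjusted p = 0.134, limma). Those of XRCC4 (-0.23, adjusted p = 0.0522, limma) and LIG4 (-0.13, adjusted p = 0.298, limma) did not pass. Within libraries 1 to 3 and within 4 to 8 the count was again 8 (87.8% and 89.4% of all genes tested there), and the Ku genes, PRKDC, NHEJ1, TP53BP1, RIF1 and MAD2L2 passed in both with the same sign.

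The groups were also compared across line labels, with libraries shared with the comparisons above. Between shCON and OlaR, whose profiles were near each other, 3 of the 10 genes passed, against 42.2% of the 11547 genes tested. XRCC6 was lower in shCON (log2 change -0.24, adjusted p = 8.82e-06, limma), and it was the 1 gene of the 10 with no overlap (16.6% of all genes tested), while LIG4 (0.23, adjusted p = 0.0178, limma) and XRCC4 (0.21, adjusted p = 0.0315, limma) were higher. Of all genes tested, 22.9% were higher and 19.3% lower. PRKDC differed by 0.01 (95% interval -0.12 to 0.14) and NHEJ1 by -0.04 (95% interval -0.20 to 0.13). The value of PRKDC joined opposite changes, -0.25 within libraries 1 to 3 (adjusted p = 0.00107, limma) and 0.18 within 4 to 8 (adjusted p = 0.00385, limma). Those of RIF1 were also opposite, at -0.17 (adjusted p = 0.0263, limma) and 0.30 (adjusted p = 0.00322, limma). Within libraries 4 to 8, 8 of the 10 passed, 6 higher and 2 lower (56.5% of all genes tested there). Within 1 to 3, 4 passed, all lower in shCON (47.5%). LIG4 and XRCC4 were not among these 4, at 0.04 each (adjusted p = 0.660 and 0.696, limma). Neither of them passed with the replicate or the library number as a block. LIG4 also did not pass in the exact rank test, nor XRCC4 with the length and GC correction.

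Between shCEBPB and A2780, 8 of the 10 genes passed, against 88.9% of the 12234 genes tested, and 5 did not overlap (72.3% of all genes tested). The 8 were 5 higher (37.4%) and 3 lower (51.5%). PRKDC was 2.11 times as high in shCEBPB (log2 change 1.05, adjusted p = 3.98e-11, limma) and NHEJ1 was at 0.343 times its A2780 level (log2 change -1.35, adjusted p = 5.84e-15, limma). XRCC4 (0.49), XRCC5 (0.39), TP53BP1 (0.37) and DCLRE1C (0.23) were higher, and XRCC6 (-0.49) and RIF1 (-0.31) lower. LIG4 (0.07) and MAD2L2 (0.06) did not pass. Within libraries 1 to 3, 9 of the 10 passed (86.9%), and within 4 to 8 all 10 did (90.6%). The change of RIF1 was 0.04 after the correction for length and GC content. The median of all genes tested was -0.18 here and -0.06 with quantile normalization.

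Over the 4 groups, the means of NHEJ1 spanned the widest range, with the highest group 2.92 times the lowest, followed by PRKDC (2.11) and XRCC5 (1.88). The narrowest was LIG4 (1.21). In the order of group means, PRKDC had its gap between A2780 and OlaR, with the 3 upper groups overlapping. NHEJ1 had its gap between OlaR and A2780 at the upper end, and TP53BP1 between OlaR and shCEBPB. XRCC6 had gaps at both ends, since shCEBPB lay below and OlaR above the overlapping A2780 and shCON. Neighbours in the order overlapped throughout for XRCC5, DCLRE1C, LIG4, XRCC4, RIF1 and MAD2L2.

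RefSeq promoter windows (GRCh38.p14) were at hand for 8 of the 10 genes, not for XRCC5 and PRKDC. The C/EBP-type letters TTGCNNAA were searched on both strands of the 250 bases before the start. The 8 genes have 15 windows. The letters were found in 2 of the 15, 1 each of XRCC6 and RIF1, and in 9.05% of the 35116 windows of all genes. The stricter TTGCGNAA, which is contained in the first, was in none of the 15 and in 0.752% of all windows. The letters CCAAT were counted apart and are not among the C/EBP-type letters above. They were in 8 of the 15, from XRCC6, DCLRE1C, LIG4, TP53BP1, RIF1 and MAD2L2, and in 32.0% of all windows. XRCC6 and RIF1 were both lower in shCEBPB over all libraries, though RIF1 did not pass within libraries 1 to 3 (-0.05, adjusted p = 0.526, limma). NHEJ1 was also lower over all libraries and had no match, and XRCC5 was lower and had no window. The match lies on the strand shown in XRCC6 and on the other in RIF1. The 2 windows with TTGCNNAA are shown up to the first annotated exon, with the match in capitals. They are chr22:41621045-41621162 and chr2:151409652-151409882, both on the plus strand.
XRCC6: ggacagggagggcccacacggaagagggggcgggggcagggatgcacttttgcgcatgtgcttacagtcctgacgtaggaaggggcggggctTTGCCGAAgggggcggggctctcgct
RIF1: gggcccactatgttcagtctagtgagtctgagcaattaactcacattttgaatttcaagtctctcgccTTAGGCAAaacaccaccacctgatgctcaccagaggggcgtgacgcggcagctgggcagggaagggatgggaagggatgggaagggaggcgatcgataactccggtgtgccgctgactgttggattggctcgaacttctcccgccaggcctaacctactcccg

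The matches begin 26 (XRCC6) and 163 (RIF1) bases before the first annotated exon. No binding was measured in these libraries.

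Other genes of these pathways were taken from 5 lists with 34 genes. In shCEBPB against shCON 29 of the 31 tested passed, 12 higher and 17 lower, beside 84.7% of all genes tested (38.9% higher and 45.7% lower), and the median log2 change was -0.24 against -0.07 for all genes tested. In OlaR against A2780 29 of the 32 tested passed, 18 higher and 11 lower, beside 89.8% of all genes tested (40.1% higher and 49.7% lower), and the median was 0.27 against -0.12. These shares also stand beside the counts of the single lists below, which are too short to be read against them. Within libraries 1 to 3 and 4 to 8, 26 and 25 of the 31 passed in shCEBPB (82.2% and 86.3% of all genes tested there). In OlaR 27 and 30 of the 32 passed (90.1% and 90.4%). DNTT was listed at 0 in all libraries.

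Among KEGG end-joining genes outside the 10, 3 rose and 2 fell in shCEBPB, and 4 rose and 1 fell in OlaR. FEN1, a flap endonuclease, rose from a mean of 66.3 to 127 FPKM in shCEBPB (log2 change 0.92, adjusted p = 2.68e-11, limma) and from 17.7 to 68.3 FPKM in OlaR (1.89, adjusted p = 5.03e-20, limma). RAD50, of the MRN complex that senses and processes ends, fell in both (-0.75 and -0.59). It shares 8124 exonic bp with another gene on its strand. Of the other end-joining factors, 1 rose and 4 fell in shCEBPB. C9orf142 (PAXX, which binds Ku) rose from 46.4 to 93.7 FPKM (0.97). In OlaR 3 rose and 3 fell, with PARP3 lower (-0.87).

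Of the genes that recruit 53BP1 or hold it back, 1 rose and 4 fell in shCEBPB. ATM, the kinase that starts the signal at breaks, fell from 9.05 to 4.51 FPKM (log2 change -0.88, adjusted p = 9.24e-09, limma). NUDT16L1 (TIRR), which binds 53BP1 and holds it from chromatin, rose from 15.4 to 24.2 FPKM (0.60, adjusted p = 0.000206, limma). Within libraries 1 to 3 its means were 16.2 in shCON and 18.7 FPKM in shCEBPB, with overlap, and within 4 to 8 they were 14.9 and 27.4. In OlaR 3 rose and 1 fell: H2AFX, the histone marked at breaks, rose from 51.7 to 90.0 FPKM (0.79) and ATM fell (-0.27). Mean ATM was 10.3 FPKM in A2780 and 10.5 in OlaR within libraries 1 to 3, and 11.4 and 8.04 within 4 to 8. Of the effectors and regulators after 53BP1, 5 rose and 5 fell in shCEBPB. The extremes belong to the CST complex, which fills in ends with shieldin: TEN1 rose from 7.68 to 15.6 FPKM (0.91) and STN1 fell from 3.86 to 1.64 FPKM (-0.88), while TEN1 shares 974 exonic bp with another gene on its strand.

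In OlaR 4 of these effectors and regulators rose and 5 fell. TRIP13, the ATPase that takes REV7 complexes apart, rose from 13.1 to 175 FPKM, 13.3 times as high (log2 change 3.64, standard error 0.05, adjusted p = 3.34e-23, limma). It was at means of 186 FPKM in shCON and 147 FPKM in shCEBPB, where it fell (-0.35). CTC1, of the CST complex, fell from 8.38 to 4.29 FPKM (-0.83). Alternative end-joining, which uses short homologies, had 2 genes higher and 2 lower in shCEBPB, with RBBP8 (CtIP, which starts resection) higher (0.68) and LIG3 lower (-0.60). In OlaR 4 rose and 1 fell, with XRCC1 up from 9.27 to 27.7 FPKM (1.48, adjusted p = 6.05e-14, limma) and RBBP8 down from 32.6 to 15.9 FPKM (-1.01).

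**Figure D5:**
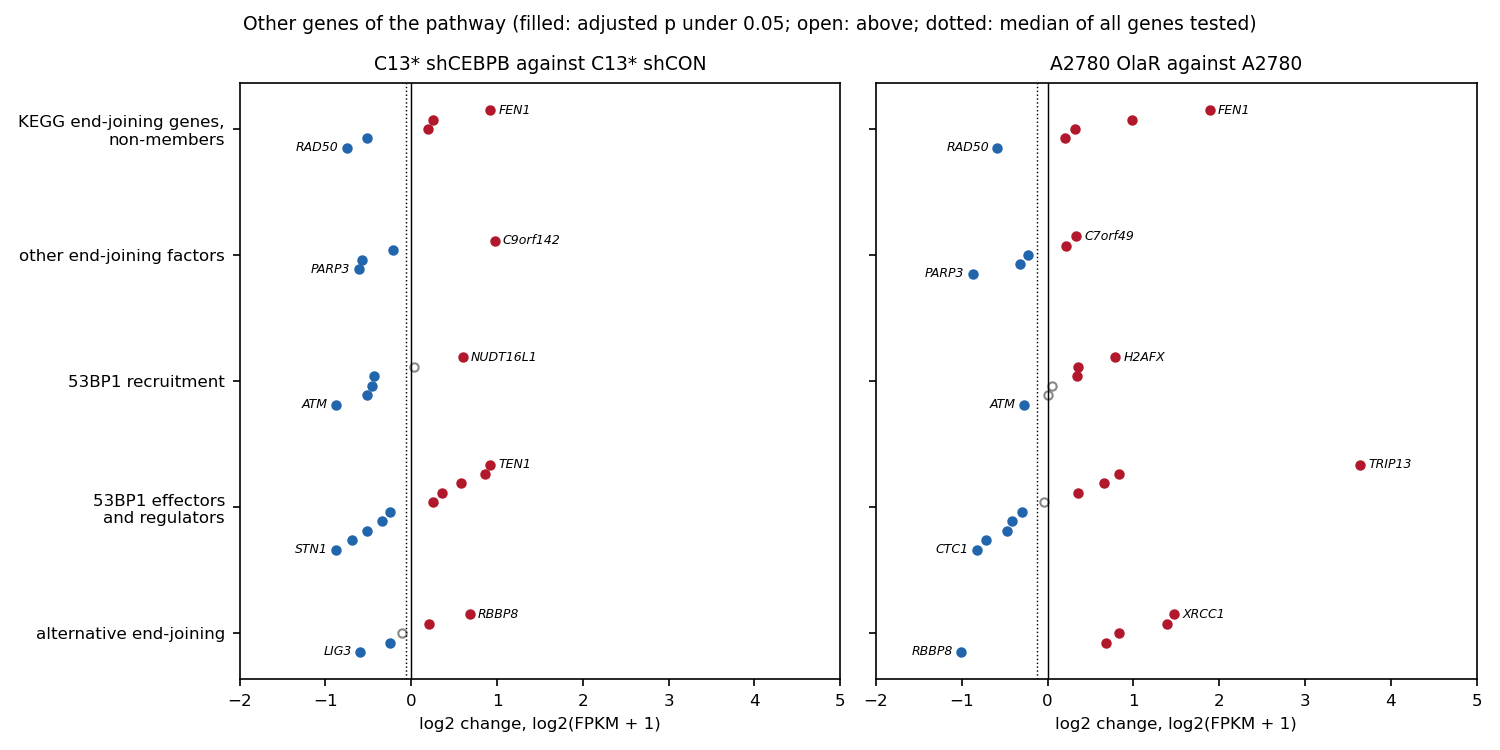
log2 change on log2(FPKM + 1) (x axis) of tested genes of 5 pathway lists (y axis; 1 gene is not shown) in C13* shCEBPB against C13* shCON (left) and A2780 OlaR against A2780 (right). Filled points have an adjusted p under 0.05 (red higher, blue lower), open points do not, the dotted line is the median of all genes tested, and the lowest and highest gene shown of each list are named. TRIP13 in OlaR (3.64) lies farthest from 0, and 4 of the 5 alternative end-joining genes lie right of 0 in OlaR.

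The genes with the nearest pattern to each of the 10 were taken as those with the smallest root-mean-square difference of centred log2(FPKM + 1) over the 31 libraries, among 12966 genes. For PRKDC these were MYCBP2 (0.0631), MCU and DOCK5, and for NHEJ1 CYP20A1 (0.112), MID2 and ZNF264. For TP53BP1 they were NONO (0.0577), CDC42 and FMR1. Beside these values, the own root-mean-square spread of the genes was 0.443 for PRKDC, 0.538 for NHEJ1 and 0.185 for TP53BP1. The Ku genes had different neighbours, NCAPG, TOMM70 and STK3 for XRCC5 (0.0863 for the first) and MRPL45, KANSL1 and PTK2 for XRCC6 (0.0702). RIF1 lay nearest to PPP1R12A (0.0615), CDC27 and GFM2, and MAD2L2 to STXBP2 (0.0935), LSM4 and ARHGEF10L. For XRCC4 they were CCT8, TIPARP and ZWILCH, for LIG4 NAA25, TWISTNB and PAPD5, and for DCLRE1C PSMD1, POLR3A and SEC31A, at 0.0818 to 0.104. None of the 10 genes was among the nearest 3 of another.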

How the data were processed

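RNA of C13* shCON, C13* shCEBPB, A2780 and A2780 OlaR cells was sequenced by the authors as 150 bp paired-end reads, aligned with TopHat to hg38 and counted with HTSeq. The deposited table holds FPKM per gene and library. The tool, annotation and strand setting behind the FPKM are not given in the sources used here. Absolute depth is unknown, so no counting intervals are given. Of 19225 entries, 4 that repeat a symbol were dropped, and 23 carry dates in place of symbols. The study planned 8 replicates a group, described as biological, and 7 shCON libraries were used. What separated them is not stated in the labels, so p-values measure the spread between these libraries.

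FPKM were tested as log2(FPKM + 1) with limma 3.58.1 (R 4.3.3, variance trend, two-sided, Benjamini-Hochberg over all genes tested, threshold 0.05). A gene was tested at 1 FPKM or more in at least the number of libraries of the smaller group (7 libraries for the difference of the changes). Low genes have understated changes on this scale. Single genes also had an exact two-sided permutation test of mean log2 values (Python 3.11.15, scipy 1.17.1). A count test does not apply to FPKM. On simulated data with 200 changed genes, the shCEBPB comparison recovered 94 of 95 changed by 0.5 log2 (11499 genes) and the OlaR comparison 103 of 104 (11736 genes). Of the genes called there, 14 of 213 (6.57%) and 11 of 210 (5.24%) had not been changed. The simulated libraries varied independently, without library ranges, and low genes were never changed. The recovery therefore need not hold for these data.

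The members and lists were chosen with earlier results of these data known. Named are the 10 genes, CEBPB, the markers, the largest rise and fall among the genes past the threshold of each pathway list, and the 3 genes nearest in pattern. TRIP13 in shCEBPB was added after its values were seen. In the pathway lists, 1 gene is counted but not reported here by itself. Positions are from GENCODE on GRCh38, which matched 18278 of 19221 symbols (95.1%). Alternatives were other pseudocounts (0.1, 0.01), no filter or a filter at 5 FPKM, a common sum, quantile normalization, a length and GC correction, 1 fit of all groups, replicate or library number as a block, either library range, each library left out, and an exact rank test.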

Additional observations from a re-analysis of the deposited data

Results flagged for a closer look

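The FPKM of 2 genes in 1 A2780 library lay apart from the group by Dixon's criterion, which chance meets in about 1 in 20 groups; 44 groups were looked at. XRCC5 was at 104 FPKM in A2780 replicate 8, where the next library had 91.5, and XRCC6 was at 302 FPKM in the same library, where the next had 288. Without this library the rises in OlaR were 0.78 for XRCC5 and 0.32 for XRCC6 (adjusted p = 3.76e-09 and 1.36e-09, limma).

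The change in shCEBPB against shCON differed from the change in OlaR against A2780 in 8 of the 10 genes, by an interaction term over all libraries (89.1% of all genes tested). As the first change minus the second on the log2 scale, the differences were -1.25 in XRCC5, -0.86 in XRCC6, -0.79 in PRKDC, -0.28 in DCLRE1C, 0.81 in NHEJ1, 0.36 in TP53BP1, -0.30 in RIF1 and 0.60 in MAD2L2. Labelled condition and cell background cannot be told apart in either change.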

How the results depend on the processing

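Over all results and alternatives, 644 values kept their direction and side of the threshold, 38 changed direction, 32 passed only under the alternative and 25 no longer passed. The cause was not tested. XRCC6 and TP53BP1 in shCEBPB, and XRCC5, XRCC6, PRKDC, NHEJ1 and DCLRE1C in OlaR, kept both under every alternative run and without any 1 library. Absolute depth is unknown, so what depth limits could not be given. DCLRE1C was not tested with the filter at 5 FPKM, and the rank test was not run on the difference of the changes.

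On average, same-numbered libraries of the groups compared here did not deviate in the same direction. Their mean r was -0.148 in shCEBPB and shCON, with 2 of 7 pairs over 0.1, against 0.023 between different numbers. In OlaR and A2780 it was -0.233, with 1 of 8 pairs over 0.1, against 0.037. OlaR and shCEBPB were not compared in this way. Single numbers were not taken as pairs, although libraries 1 to 3 stood apart from 4 to 8 in 3 of the 4 groups. With the replicate block 6, 7, 8 and 8 of the 10 genes passed in shCEBPB against shCON, OlaR against A2780, the difference of the changes and shCEBPB against A2780, as without it. Of all genes tested, 9885 of 12006, 10960 of 12458, 11510 of 12967 and 10655 of 12234 passed with this block. In shCON against OlaR 1 passed with the replicate block and 1 with the library number as a block, against 3 without, and PRKDC went to -0.0056 and -0.0083. Of the 11547 genes tested there, 3436 and 3510 passed with these blocks. In that comparison 8 passed within libraries 4 to 8.

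Log2 changes turned as follows. In shCEBPB against shCON, quantile normalization gave -0.018 in PRKDC, 0.18 in DCLRE1C and 0.050 in LIG4. The length and GC correction gave 0.017 in DCLRE1C and 0.021 in LIG4 (0.0085 and 0.032 with the replicate block). Libraries 1 to 3 gave 0.13 in DCLRE1C and 0.11 in LIG4, and libraries 4 to 8 gave -0.084 in PRKDC and -0.11 in XRCC4. In OlaR against A2780, quantile normalization gave 0.16 in LIG4 and 0.061 in RIF1, and the length and GC correction, with or without the block, 0.078 and 0.13. Libraries 1 to 3 gave 0.32 in LIG4, 0.27 in RIF1 and -0.055 in CEBPB. TP53BP1 was at -0.0028 with a common sum and at -0.024 within libraries 4 to 8. In shCON against OlaR, libraries 1 to 3 gave -0.13 in XRCC5, -0.25 in PRKDC, -0.14 in DCLRE1C, -0.17 in RIF1 and 0.12 in MAD2L2, and libraries 4 to 8 gave 0.0072 in NHEJ1. In shCEBPB against A2780, LIG4 was at -0.17 within libraries 4 to 8 and RIF1 at 0.035 with the length and GC correction, blocked or not, and at 0.056 within libraries 1 to 3. MAD2L2 was at -0.059 with quantile normalization, at -0.11 with the length and GC correction, blocked or not, and at -0.36 within libraries 1 to 3.

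With 1 library left out, 6 to 7 of the 10 genes passed in shCEBPB against shCON, 7 in OlaR against A2780, 7 to 9 in the difference of the changes, 2 to 4 in shCON against OlaR and 8 in shCEBPB against A2780. The added gene in shCEBPB was LIG4 without shCEBPB replicate 3 (-0.19, adjusted p = 0.0265, limma). RIF1 no longer passed in the difference of the changes without OlaR replicate 1, 2 or 3, shCON replicate 4 or shCEBPB replicate 8. Ranges across 0 were -0.0132 to 0.0704 in XRCC4 (shCEBPB against shCON), -0.0472 to 0.0290 in LIG4 (OlaR against A2780), and -0.0119 to 0.0364 in PRKDC and -0.0686 to 0.0185 in NHEJ1 (shCON against OlaR).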
